A study of Mus musculus with 8 samples.

Results

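The core genes of the circadian clock were read in the livers of mice that lack *Usp39* in hepatocytes. They were picked from the deposited gene table by symbol, from a list of names: *Clock*, *Npas2*, *Per1*, *Per2*, *Per3*, *Cry1*, *Cry2*, *Nr1d1*, *Nr1d2* and *Dbp*, 10 of the 55385 genes of the table. All 10 passed the filter on low values (4 or more of the 8 mice with an FPKM no lower than 0.5), as did 14340 genes in all. FPKM are the fragments counted on a gene, scaled to the length of its exons and to the total of the mouse.

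The study sequenced total liver RNA from 4 *Usp39*-HKO mice (A469, A470, A471 and A474) and 4 control littermates (A468, A472, A473 and A475), with 1 library per mouse. All 8 mice were male, on a C57BL/6J background, 5 weeks old and had been fasted for 16 h. In the *Usp39*-HKO mice both copies of *Usp39*, a protein of the U4/U6.U5 tri-snRNP of the spliceosome, carried loxP sites around exon 2, and Cre was driven by the albumin promoter. The labels give the genotype of the controls as WT, and whether they carried loxP sites or Cre is not given in the sources used here. Cre from this promoter acts in cells of the hepatocyte lineage, while the RNA came from whole liver with all its cell types, so that fewer cells of a type and less RNA per cell cannot be told apart. Each mouse gave 1 liver at 1 time, and the hour of collection is not given in the sources used here. A change in the level of a rhythmic gene and a shift in the time of its rhythm cannot be told apart in such samples.

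The mammalian clock is a feedback loop of transcription. CLOCK or its paralog NPAS2 pairs with BMAL1, the product of *Arntl*, and activates genes through E-boxes, among them the *Per* and *Cry* genes, whose proteins return to the nucleus and inhibit the activator. The same pair drives *Nr1d1* and *Nr1d2*, which encode the haem-binding nuclear receptors REV-ERBα and REV-ERBβ, repressors that occupy RORE sites of *Arntl*, *Clock*, *Npas2*, *Cry1* and *Nfil3*, and it drives *Dbp*, a PAR bZIP activator that binds D-boxes and transmits the rhythm to metabolic genes. In liver, feeding and fasting set the phase of this loop, and its outputs include bile acid, haem and lipid metabolism.

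The promoter stretches of 6 members are shown. They hold letters that match motifs of the loop, apart from that of *Dbp*, shown because the gene was among those called in these data. *Clock* and *Cry2* also held matches, named below, and their stretches are not shown. Whether a match is a site that the loop uses was not tested. The stretches are RefSeq sequences on GRCm38.p6, written in the direction of transcription. They come from windows of 300 bases (250 before an annotated transcription start and 50 from it) and are limited to bases outside annotated exons. Capitals mark the matches to 4 motifs, searched on both strands, so that a match can read as the reverse complement. The E-box was searched as CACGTG, and a weaker form of it as CACGTT. The D-box was searched as TTATGTAA and also as TTACGTAA. The core of the RORE, to which REV-ERB proteins bind, was searched as AGGTCA. No matches overlap in the stretches shown.
Nr1d1 (chr11:98775378-98775587, minus strand): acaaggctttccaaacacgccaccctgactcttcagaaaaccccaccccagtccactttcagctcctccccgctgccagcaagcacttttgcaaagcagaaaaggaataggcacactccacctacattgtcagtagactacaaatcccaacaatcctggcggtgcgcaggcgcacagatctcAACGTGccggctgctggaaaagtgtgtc
Nr1d2 (chr14:18239128-18239337, minus strand): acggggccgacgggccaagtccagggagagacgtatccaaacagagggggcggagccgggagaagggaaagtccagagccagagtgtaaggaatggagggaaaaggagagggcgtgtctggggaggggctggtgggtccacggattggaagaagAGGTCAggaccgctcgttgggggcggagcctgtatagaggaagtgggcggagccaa
Dbp (chr7:45704997-45705087, plus strand): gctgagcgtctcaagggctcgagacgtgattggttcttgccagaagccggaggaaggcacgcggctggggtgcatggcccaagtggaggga
Per1 (chr11:69098738-69098947, plus strand): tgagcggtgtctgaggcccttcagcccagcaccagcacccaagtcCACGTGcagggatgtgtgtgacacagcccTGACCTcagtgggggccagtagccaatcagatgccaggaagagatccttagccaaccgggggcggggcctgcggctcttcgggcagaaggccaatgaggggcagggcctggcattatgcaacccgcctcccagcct
Cry1 (chr10:85185065-85185274, minus strand): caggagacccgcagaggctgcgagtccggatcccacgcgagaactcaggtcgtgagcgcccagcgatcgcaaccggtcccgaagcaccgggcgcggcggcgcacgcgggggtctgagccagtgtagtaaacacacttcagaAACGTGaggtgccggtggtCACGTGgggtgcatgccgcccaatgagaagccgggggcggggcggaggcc
Per3 (chr4:151044666-151044875, minus strand): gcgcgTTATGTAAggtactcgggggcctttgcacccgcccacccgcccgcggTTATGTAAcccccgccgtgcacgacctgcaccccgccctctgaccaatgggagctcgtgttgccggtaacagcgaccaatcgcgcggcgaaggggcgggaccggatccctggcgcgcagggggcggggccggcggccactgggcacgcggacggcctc

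Windows were available for 9 of the 10 members, all but *Per2*. The 9 members had 12 windows, since *Clock* had 3 and *Per1* 2, and a member counts if any of its windows holds a match, while the shares given beside are per single window. An E-box was found for *Per1*, 166 bases before the start, and for *Cry1*, 60 bases before it, against 7.17% of all 32544 promoter windows of the same length. The weaker form was found for *Cry1*, *Cry2* and *Nr1d1* (4.71% of windows), and the RORE core for *Nr1d2*, *Clock* and *Per1* (16.2%). Another form of that core, GGGTCA, was found for none of the 9 members (13.7%). *Per3* held the D-box as TTATGTAA at 2 places (205 and 158 bases before the start), where 1.05% of windows held TTATGTAA or TTACGTAA. The *Dbp* and *Npas2* windows held none of these letters. These are matches of letters in short windows, and binding was not measured.

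The depth was alike in the genotypes, with total counts of 8589636 to 10418450 per control and 9479922 to 10195028 per *Usp39*-HKO mouse. *Usp39* itself, read as a check of the labels, was at 9.35, 10.4, 8.76 and 9.78 FPKM in the controls A468, A472, A473 and A475 and at 8.37, 8.63, 8.70 and 8.07 FPKM in the *Usp39*-HKO mice A469, A470, A471 and A474. Each *Usp39*-HKO mouse lay below each control, with a log2 fold change of -0.41 ± 0.11 (SE; edgeR quasi-likelihood test, adjusted p = 0.0212). The call was lost without A474 (edgeR adjusted p = 0.0615) or A475 (0.0547), with no scaling beyond the total (log2 fold change -0.18, adjusted p = 0.241) and with limma on log2(FPKM + 1) (-0.16, adjusted p = 0.190). The value covers all exons, those outside the deleted exon too, and all cells of the liver. Below, the values of mice are given in the order A468, A472, A473 and A475 for controls and A469, A470, A471 and A474 for *Usp39*-HKO mice. Log2 fold changes are *Usp39*-HKO over control from edgeR on the counts with TMM scaling, given with the SE of the fit, and p-values are adjusted over the 14340 genes tested.

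The clock genes did not change as one. The REV-ERB genes *Nr1d1* and *Nr1d2* and the output factor *Dbp* were higher in *Usp39*-HKO livers (fitted 3.65-fold, 1.47-fold and 3.96-fold, n = 4 per genotype), and none of the 7 other members passed the test in either direction (22.5% of all tested genes did). The 3 of 10 members called higher stand against 10.9% of all tested genes, and the 0 of 10 called lower against 11.6%. The median log2 fold change was 0.10 over the 10 members and -0.0015 over all tested genes. At the cutoff of the study's methods (unadjusted p under 0.05 and a log2 fold change beyond 0.5) the count was again 3 higher and 0 lower, against 12.1% and 9.62% of tested genes. On FPKM, only *Nr1d1* and *Nr1d2* of the 10 members had no overlap between genotypes, both with the *Usp39*-HKO mice above, which 23.9% of tested genes also showed. No member had all *Usp39*-HKO mice below the controls, as 4.81% of tested genes did. The call of *Dbp* held in only 2 of the 8 fits that left out a mouse. The size of its change rested largely on mouse A469 (log2 fold change 1.99 with it and 0.84 without it), as described below.

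**Figure D1:**
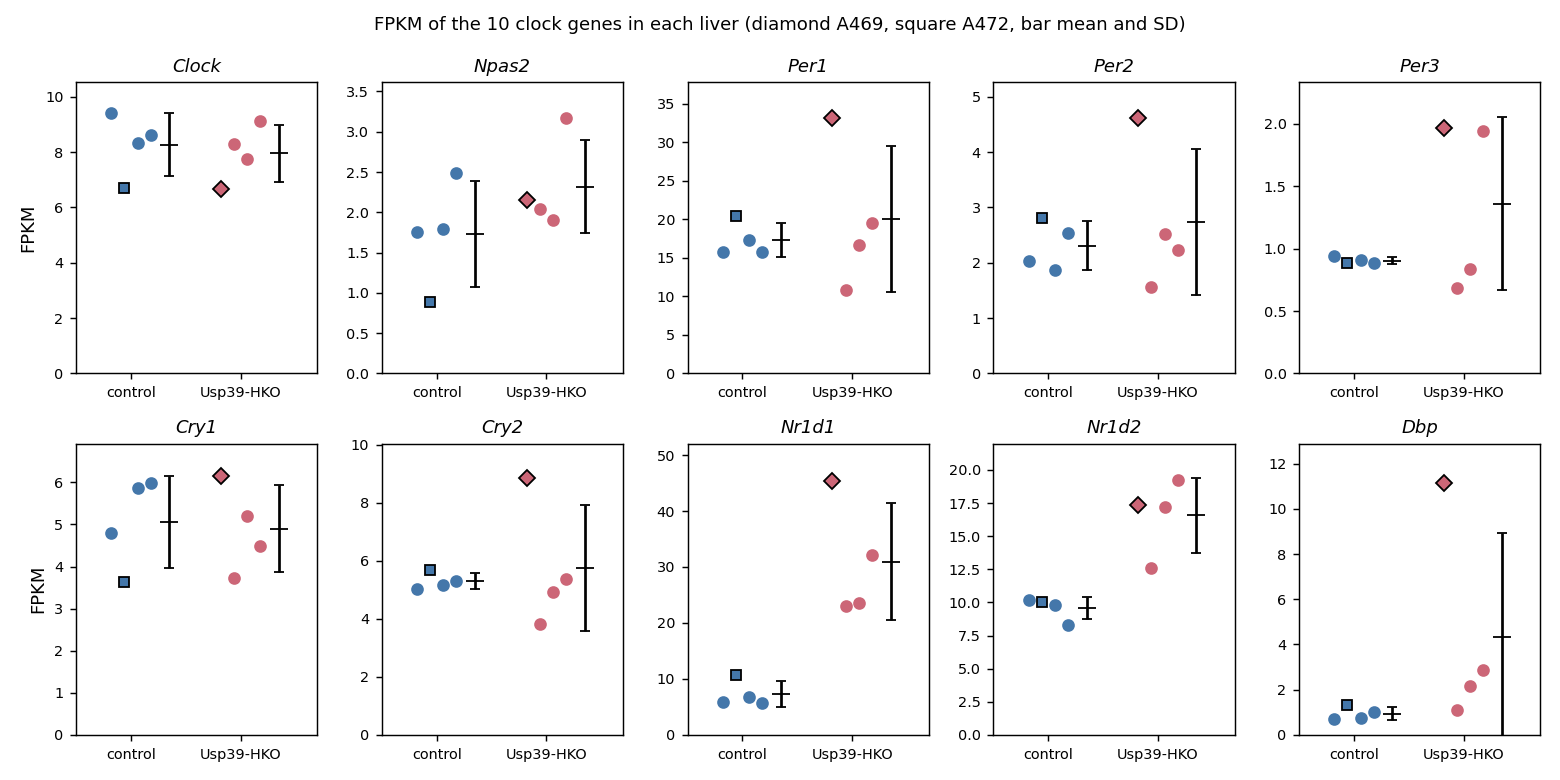
FPKM (y axis of each panel, from 0) of the 10 clock genes in 4 control (blue) and 4 *Usp39*-HKO livers (red). Each symbol is 1 mouse, with A469 as a diamond and A472 as a square, and the bars give mean ± SD (the bar of *Dbp* is cut at 0). The groups separate for *Nr1d1* and *Nr1d2*, and A469 is the highest *Usp39*-HKO mouse in 7 of the 10 panels.

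In control livers *Per1* had the highest level of the members, 17.3 ± 2.2 FPKM (mean ± SD, n = 4), above the range of the next, *Nr1d2* (9.58 ± 0.853 FPKM). *Nr1d2*, *Clock* (8.26 ± 1.15 FPKM), *Nr1d1* (7.26 ± 2.36 FPKM), *Cry2* (5.30 ± 0.279 FPKM) and *Cry1* (5.06 ± 1.1 FPKM) followed, and the ranges of neighbours in this order overlapped. A gap without overlap lay between *Cry1* and *Per2* (2.31 ± 0.438 FPKM). *Npas2* (1.73 ± 0.656 FPKM), *Dbp* (0.943 ± 0.289 FPKM) and *Per3* (0.905 ± 0.0264 FPKM) were the lowest, again with overlapping neighbours. *Nr1d1* thus stood in the middle of the members in controls, while its mean of 31.0 ± 10.4 FPKM in *Usp39*-HKO livers was above that of *Per1* there, 20.1 ± 9.46 FPKM.

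The activators of the loop showed no change that passed the test. *Clock*, the bHLH-PAS partner of BMAL1, was at 9.43, 6.69, 8.32 and 8.61 FPKM in controls and at 6.66, 8.30, 7.75 and 9.11 FPKM in *Usp39*-HKO livers. The lowest mice of the 2 genotypes, A472 and A469, were at almost the same level, and the groups overlapped. Its log2 fold change was -0.30 ± 0.12 (95% interval -0.55 to -0.04, adjusted p = 0.0909), and without control A472 it was -0.39 and passed the test (edgeR adjusted p = 0.0219). *Npas2*, which can replace *Clock*, was at 1.75, 0.884, 1.80 and 2.48 FPKM in controls and at 2.15, 2.05, 1.9 and 3.17 FPKM in *Usp39*-HKO livers. Control A472 was the lowest of the 8 and the groups overlapped, with a log2 fold change of 0.18 ± 0.26 (interval -0.39 to 0.75, adjusted p = 0.672) that was -0.04 without A472. *Arntl*, the partner of both, had a log2 fold change of -0.10 ± 0.14 (interval -0.40 to 0.20, adjusted p = 0.634).

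The *Per* genes, which encode the repressor subunits that accumulate with the cycle, differed more within the *Usp39*-HKO group than between genotypes. *Per1* was at 15.8, 20.5, 17.3 and 15.8 FPKM in controls and at 33.2, 10.9, 16.7 and 19.5 FPKM in *Usp39*-HKO livers. The highest and the lowest of the 8 livers, A469 and A470, were thus both *Usp39*-HKO, and the log2 fold change was -0.01 ± 0.28 (interval -0.62 to 0.61, adjusted p = 0.990). *Per2* had the same 2 extremes, with 2.03, 2.81, 1.87 and 2.54 FPKM in controls and 4.62, 1.56, 2.52 and 2.23 FPKM in *Usp39*-HKO livers, and a log2 fold change of 0.03 ± 0.30 (interval -0.64 to 0.69, adjusted p = 0.964). *Per3*, which is dispensable for the core loop, was nearly even in controls (0.941, 0.882, 0.909 and 0.889 FPKM). In *Usp39*-HKO livers it was at 1.97, 0.684, 0.840 and 1.94 FPKM, so that 2 mice lay above all controls and 2 below all of them. Its log2 fold change was 0.35 ± 0.31 (interval -0.33 to 1.03, adjusted p = 0.460).

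The cryptochromes, the strongest repressors of the loop, did not pass the test either. *Cry1*, which peaks late in the cycle and carries RORE sites, was at 4.79, 3.62, 5.86 and 5.98 FPKM in controls and at 6.16, 3.73, 5.21 and 4.48 FPKM in *Usp39*-HKO livers. The ranges nearly coincided, and the log2 fold change was -0.27 ± 0.21 (interval -0.72 to 0.18, adjusted p = 0.376). *Cry2* varied little among controls (5.03, 5.68, 5.18 and 5.30 FPKM) and widely among *Usp39*-HKO livers (8.86, 3.83, 4.91 and 5.36 FPKM), with a log2 fold change of -0.10 ± 0.23 (interval -0.61 to 0.40, adjusted p = 0.788). Without A469, the 1 mouse above the controls, it was -0.42 ± 0.12 and passed the test as lower (edgeR adjusted p = 0.0278). *Cry2* shares 4.67% of its exon bases with the antisense gene *D930015M05Rik*, which had at most 17 counts in a mouse.

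*Nr1d1* was higher in every *Usp39*-HKO liver. It was at 5.88, 10.7, 6.81 and 5.65 FPKM in controls and at 45.3, 23.0, 23.6 and 32.1 FPKM in *Usp39*-HKO livers (166 to 327 counts against 692 to 1354). The lowest *Usp39*-HKO mouse lay above the highest control, A472, and the group means were 7.26 ± 2.36 and 31.0 ± 10.4 FPKM (exact permutation test, two-sided p = 0.0286, the smallest that 4 against 4 mice can give). The log2 fold change was 1.87 ± 0.27 (interval 1.28 to 2.45, edgeR adjusted p = 0.00122). Leaving out each mouse in turn gave 1.59 (without A469) to 2.12 and an adjusted p of at most 0.00693. Of its exon bases, 8.55% lie in *Thra*, the thyroid hormone receptor α gene on the opposite strand, whose own log2 fold change was -0.17 ± 0.11 (edgeR adjusted p = 0.323).

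*Nr1d2* rose less than *Nr1d1* but also without overlap, from 10.1, 10.1, 9.81 and 8.32 FPKM in controls to 17.3, 12.6, 17.2 and 19.2 FPKM in *Usp39*-HKO livers. A470 was the lowest *Usp39*-HKO mouse for both genes, while A474 was the highest for *Nr1d2* and A469 for *Nr1d1*. The means were 9.58 ± 0.853 and 16.6 ± 2.84 FPKM (exact permutation test, two-sided p = 0.0286), and the log2 fold change was 0.55 ± 0.13 (interval 0.26 to 0.84, edgeR adjusted p = 0.0126). It stayed between 0.48 and 0.67 when each mouse was left out in turn, with an adjusted p of at most 0.0464. The fitted change is smaller than the ratio of the FPKM means (1.73) because TMM scaling (control factors 0.912 to 0.940, *Usp39*-HKO factors 1.01 to 1.19) lowered the *Usp39*-HKO values, which the deposited FPKM do not take up. The difference between the changes of the 2 receptors was not tested.

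*Dbp* was low in controls, at 0.691, 1.31, 0.739 and 1.03 FPKM, and was at 11.1, 1.08, 2.17 and 2.85 FPKM in *Usp39*-HKO livers. A469 had 324 counts where the other 3 *Usp39*-HKO mice had 33, 62 and 81 and the controls 19 to 39, and A470 lay within the range of the controls. The log2 fold change was 1.99 ± 0.64 (interval 0.58 to 3.40, edgeR adjusted p = 0.0459). Without A469 it was 0.84 ± 0.32 and no longer passed the test (edgeR adjusted p = 0.0846), with a mean of 2.04 ± 0.894 FPKM (n = 3) in place of 4.31 ± 4.61 FPKM (n = 4). The exact permutation test on the FPKM gave p = 0.0571, and the call was also lost without A468, A472, A473, A475 or A474 (edgeR adjusted p = 0.0539 to 0.112), so that only 2 of the 8 fits that left out a mouse kept it. *Dbp* also shares 18.0% of its exon bases with *Sphk2* on the opposite strand, a sphingosine kinase gene with 858 to 1047 counts in controls against 765 to 931 in the *Usp39*-HKO group, which was lower in *Usp39*-HKO livers (log2 fold change -0.39 ± 0.11, edgeR adjusted p = 0.0281, 0.0530 to 0.0765 without A468, A470, A472, A473, A474 or A475, and 0.241 with no scaling). The strand setting of the counting is not given in the sources used here, so reads of the shared bases cannot be assigned to either gene.

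**Figure D2:**
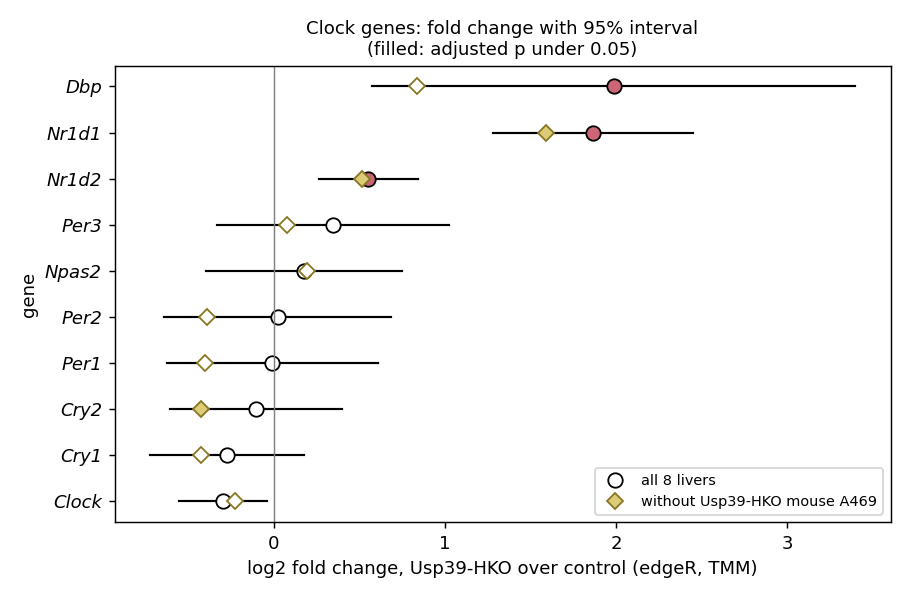
Log2 ratio of *Usp39*-HKO to control (x axis) for the 10 clock genes (y axis), from edgeR with TMM scaling. Circles with 95% intervals are the fit on all 8 livers and diamonds the fit without *Usp39*-HKO mouse A469, and filled symbols have an adjusted p under 0.05. Without A469 *Nr1d1* moves from 1.87 to 1.59 and *Nr1d2* from 0.55 to 0.51, both still filled, while *Dbp* moves from 1.99 to 0.84 and is no longer filled.

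Mouse A469 set much of the spread among *Usp39*-HKO livers. It had the highest FPKM of its group for *Per1*, *Per2*, *Per3*, *Cry1*, *Cry2*, *Nr1d1* and *Dbp*, 7 of the 10 members, where it was the highest for 17.4% of all tested genes. Its *Per1*, *Per2* and *Cry2* were 2.11, 2.2 and 1.88 times the mean of the other 3 *Usp39*-HKO mice, its *Dbp* 5.47 times and its *Nr1d2* 1.06 times. *Clock* in contrast was at 0.794 times that mean. Without A469 the members counted 2 higher (*Nr1d1* and *Nr1d2*) and 1 lower (*Cry2*), against 12.9% and 11.6% of all tested genes. Among the controls A472 was the highest for *Per1*, *Per2*, *Cry2*, *Nr1d1* and *Dbp* (5 of 10 members) and the lowest for *Clock*, *Npas2*, *Per3* and *Cry1* (4 of 10). It was also the highest control for 32.1% and the lowest for 32.7% of all tested genes, so that nothing is read from its place among the members.

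Within a genotype, the livers with more *Nr1d1* had less *Nfil3*, the gene of a bZIP repressor that competes with DBP at D-boxes and is itself a known REV-ERB target. As deviations from the genotype mean of log2(CPM + 1), *Nr1d1* was at 0.70 in A469 and 0.59 in A472, where *Nfil3* was at -0.84 and -0.50. Over the 8 livers these deviations gave a Pearson r of -0.98 between *Nr1d1* and *Nfil3* (-0.97 without A469) and of -0.81 between *Nr1d1* and *Clock* (also -0.81 without A469). The positive values were lower without A469, going from 0.86 to 0.72 for *Per1*, from 0.83 to 0.67 for *Dbp*, from 0.80 to 0.60 for *Cry2*, from 0.77 to 0.51 for *Per2*, from 0.65 to 0.40 for *Per3* and from 0.57 to 0.46 for *Nr1d2*. *Cry1* went from 0.07 to -0.50, *Npas2* from -0.47 to -0.65, *Arntl* from -0.69 to -0.75 and *Ciart* from 0.62 to 0.07. With all tested genes ranked from the highest r to *Nr1d1* down, *Per1* was at place 191, *Dbp* at 287, *Cry2* at 393 and *Per2* at 610. *Per3* was at 1442, *Ciart* at 1708 and *Nr1d2* at 2137, so that many other genes had a higher r. Near the other end, *Arntl* was at 13124, *Clock* at 13889 and *Nfil3* at 14337. These are descriptions over 8 livers of 2 genotypes, for which the labels name no batch, and *Nfil3* was singled out after its values were seen. A472 was the control with the highest *Nr1d1* and the lowest *Nfil3* and *Clock* (-0.29). No r was computed without A472, so how far these values rest on that mouse was not tested. Between genotypes *Nfil3* did not pass the test (24.4 ± 5.69 FPKM in controls and 20.6 ± 7.34 FPKM in *Usp39*-HKO livers, log2 fold change -0.49 ± 0.25, edgeR adjusted p = 0.189). By the same measure, the 5 tested genes most like *Nr1d1* were *Mllt1* (r = 0.978), *Eci2* (0.971), *Ppp1r12c* (0.970), *mt-Tl1* (0.967) and *Pear1* (0.966), none of them a clock gene. Those most like *Npas2* were *Togaram1* (r = 0.983), *Lrif1* (0.980), *Smc3* (0.978), *Gm22485* (0.977) and *Ccdc59* (0.976), and *Arntl* had an r of 0.81 to *Npas2*.

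**Figure D3:**
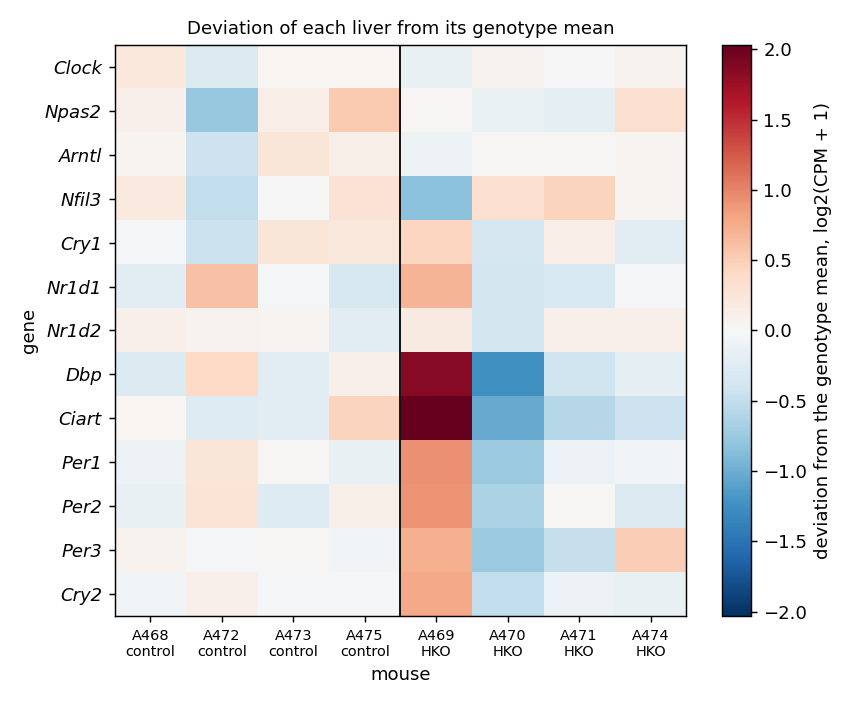
Deviation of each liver from the mean of its genotype in log2(CPM + 1) (colour) for the 10 clock genes with *Arntl*, *Nfil3* and *Ciart* (rows) in 4 control and 4 *Usp39*-HKO mice (columns, divided by the line). A469 is above its group for *Dbp* (1.85), *Per1* (0.93) and *Nr1d1* (0.70) and below it for *Nfil3* (-0.84).

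Most markers of stellate cells, Kupffer cells, cholangiocytes and proliferating cells were higher in *Usp39*-HKO livers. Of all tested genes 10.9% were higher and 11.6% lower. The part of these cells in the clock results was not tested. Of the stellate cell and fibroblast markers 6 of 8 were higher in *Usp39*-HKO livers (summed FPKM 63.3 to 74.5 in controls against 105 to 200 in the *Usp39*-HKO group), of the Kupffer cell and macrophage markers 5 of 6 (222 to 278 and 341 to 581), of the cholangiocyte markers all 4 tested of 5 (26.4 to 28.7 and 64.1 to 285) and of the proliferation markers 5 of 6 (11.0 to 15.9 and 29.4 to 41.8). Of the sinusoidal endothelium markers none of 6 was higher and 2 were lower, with sums of 97.5 to 109 in controls against 102 to 106 in the *Usp39*-HKO group. The hepatocyte markers summed to between 15229 and 17044 FPKM in controls and to between 13657 and 18589 FPKM in *Usp39*-HKO mice, with none of 7 higher and 2 lower, and no marker of any list was at 0 in all mice. A469, the *Usp39*-HKO mouse with the most *Nr1d1* and *Dbp*, had the lowest summed stellate cell (105), Kupffer cell (341) and cholangiocyte (64.1) markers of its group and the highest hepatocyte sum (18589). Its sums lay within the range of the other *Usp39*-HKO mice for sinusoidal endothelium (104 against 102 to 106) and for proliferation (38.3 against 29.4 to 41.8).

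Around the members, 22 further genes of the clock machinery were read, of which 20 passed the filter. In *Usp39*-HKO livers 2 of the 20 were higher and 2 lower, against 10.9% and 11.6% of all tested genes, so that the list as a whole stood close to the background. Higher were *Arntl2*, a paralog of *Arntl* (0.326 ± 0.0606 FPKM in controls and 0.687 ± 0.198 FPKM in *Usp39*-HKO livers, log2 fold change 0.83 ± 0.25, edgeR adjusted p = 0.0361), and *Csnk1e*, a casein kinase that phosphorylates PER proteins (2.03 ± 0.0976 and 3.77 ± 1.12 FPKM, 0.64 ± 0.16, edgeR adjusted p = 0.0134). Neither overlapped between genotypes on FPKM, where 23.9% of tested genes had every *Usp39*-HKO mouse above every control. The call of *Csnk1e* held without each mouse, and that of *Arntl2* was lost without A468, A470, A473, A474 or A475 (edgeR adjusted p = 0.0634 to 0.110) and with no filter on low values (0.0678).

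Lower were *Btrc*, the F-box protein that marks PER for degradation (1.64 ± 0.249 FPKM in controls and 1.25 ± 0.109 FPKM in *Usp39*-HKO livers, log2 fold change -0.64 ± 0.13, edgeR adjusted p = 0.00571), and *Hlf*, a PAR bZIP factor related to *Dbp* (10.6 ± 1.55 and 8.58 ± 1.91 FPKM, -0.53 ± 0.17, edgeR adjusted p = 0.0462). The call of *Btrc* held without each mouse, and that of *Hlf* was lost without any mouse but A469 (edgeR adjusted p = 0.0633 to 0.140) and with no scaling (0.157). Both overlapped between genotypes on FPKM, and with limma on log2(FPKM + 1) no gene of this list was called lower and 4 were called higher. The median log2 fold change of the 20 was -0.06. *Tef*, the remaining PAR bZIP factor, named after its values were seen, had a log2 fold change of -0.04 ± 0.20 (edgeR adjusted p = 0.925). Of the 3 related factors 1 was thus called higher, 1 lower and 1 neither. The calls of *Dbp* and *Hlf* lay close to the threshold (edgeR adjusted p = 0.0459 and 0.0462). They held in only 2 and 1 of the 8 fits that left out a mouse, so that no divergence of these factors is read from them.

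Of 16 genes that the clock is known to drive in liver, 1 was higher (against 10.9% of all tested genes), 4 were lower (against 11.6%) and 11 did not pass the test, with a median log2 fold change of -0.17. *Wee1*, a cell cycle kinase whose promoter holds E-boxes, was at 1.56, 1.12, 1.63 and 1.07 FPKM in controls and at 5.36, 4.02, 7.08 and 6.36 FPKM in *Usp39*-HKO livers, without overlap (log2 fold change 1.85 ± 0.22, edgeR adjusted p = 0.000591). *Elovl3*, a fatty acid elongase with a known daily rhythm in liver, fell from 55.0, 27.8, 19.3 and 15.5 FPKM in controls to 4.69, 2.53, 9.82 and 2.35 FPKM in *Usp39*-HKO livers, also without overlap (-2.82 ± 0.50, edgeR adjusted p = 0.00333). These are the 2 output genes in which each *Usp39*-HKO liver lay on 1 side of each control and the call held in all 8 fits that left out a mouse. Of all tested genes, 23.9% had every *Usp39*-HKO mouse above every control on FPKM, and 4.81% had every one below.

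*Cyp7a1*, the rate-limiting enzyme of bile acid synthesis (39.7 ± 16.4 FPKM in controls and 14.5 ± 9.78 FPKM in *Usp39*-HKO livers, log2 fold change -1.68 ± 0.42, edgeR adjusted p = 0.0164), *Upp2*, a uridine phosphorylase (15.5 ± 6.56 and 5.61 ± 3.48 FPKM, -1.66 ± 0.41, edgeR adjusted p = 0.0143), and *Avpr1a*, the vasopressin receptor of hepatocytes (14.9 ± 1.35 and 10.8 ± 2.62 FPKM, -0.69 ± 0.18, edgeR adjusted p = 0.0206), were also lower, with overlap between genotypes on FPKM. The call of *Cyp7a1* was lost without A473 (edgeR adjusted p = 0.0535) and that of *Avpr1a* without A471 (0.0542) or A473 (0.0508). With limma on log2(FPKM + 0.1) both calls were lost (adjusted p = 0.0502 for *Cyp7a1* and 0.0740 for *Avpr1a*), and that of *Upp2* was kept (0.0385). The other 11 output genes did not pass the test, among them the haem synthesis gene *Alas1* (110.5 ± 21.9 and 177 ± 29.9 FPKM with each *Usp39*-HKO mouse above each control, log2 fold change 0.45 ± 0.18, edgeR adjusted p = 0.0976) and *Nampt*, which makes NAD+ (-0.17 ± 0.12, edgeR adjusted p = 0.322). The FPKM do not take up the TMM scaling, and 23.9% of tested genes also had every *Usp39*-HKO mouse above every control on FPKM. *Alas1* and *Nampt* were named after their values were seen.

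**Figure D4:**
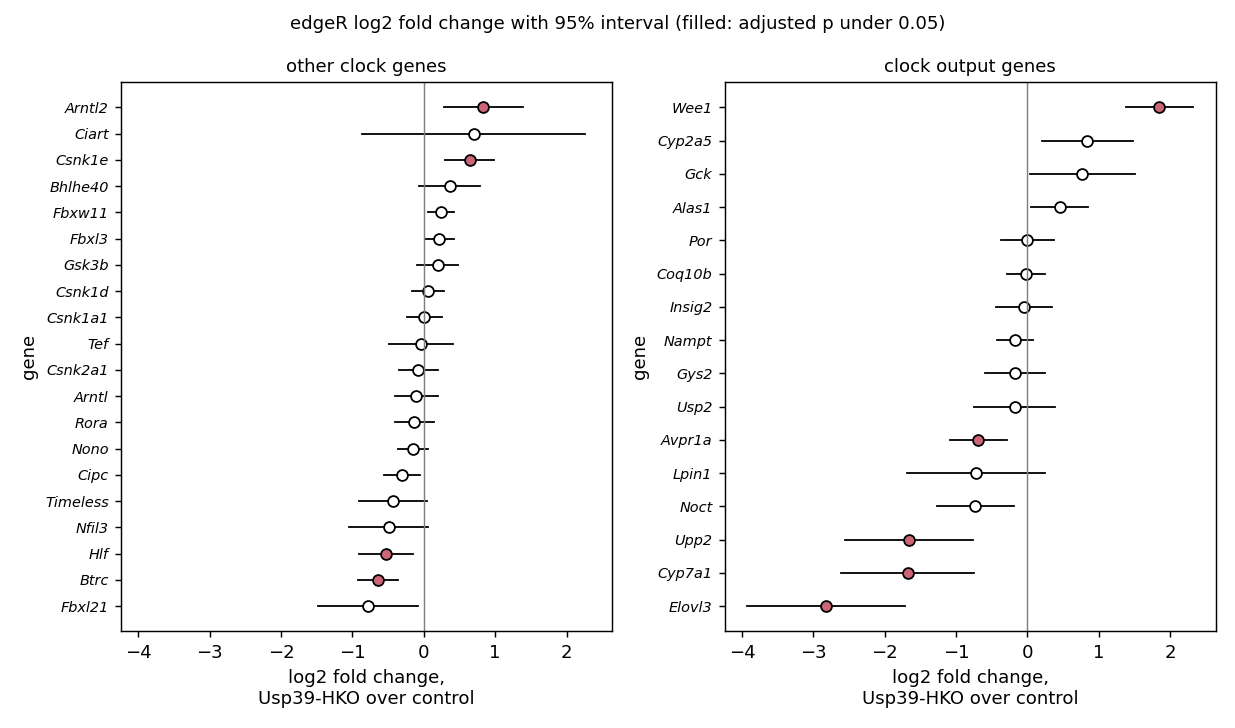
Log2 ratio of *Usp39*-HKO to control with its 95% interval (x axis, edgeR with TMM scaling, 4 mice per genotype) for 20 other clock genes (left) and 16 clock output genes (right). Filled circles have an adjusted p under 0.05: 2 higher and 2 lower on the left, and 1 higher (*Wee1*, 1.85) and 4 lower (lowest *Elovl3*, -2.82) on the right.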

How the data were processed

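Liver RNA of 8 mice was compared between 4 *Usp39*-HKO and 4 control mice, grouped by the genotype in the labels. The authors trimmed the reads, aligned them to mm10 (the same assembly as GRCm38) with HISAT2, ran featureCounts and deposited the raw counts of each gene and mouse. Picard is also named among their tools, and whether PCR copies were taken out before counting was not tested. The authors also deposited FPKM, and counts, exon lengths and totals gave them back within a relative difference of 1.96e-07. The deposited table further holds the log2 fold change, the score columns, p-values and mean normalized signal of the authors' own DESeq2 comparison, which were not used. The strand setting and annotation release are not given in the sources used here. The exon lengths of the 10 members equal those of GENCODE vM21 on GRCm38, from which exons and overlaps were taken. Their genes lie at 5:76209868-76304792 (*Clock*), 1:39193731-39363236 (*Npas2*), 11:69095217-69109960 (*Per1*), 1:91415982-91459324 (*Per2*), 4:151003652-151044665 (*Per3*), 10:85131700-85185064 (*Cry1*), 2:92403646-92434043 (*Cry2*), 11:98767932-98775333 (*Nr1d1*), 14:18204054-18239127 (*Nr1d2*) and 7:45705088-45710203 (*Dbp*), and their values are sums over all exons.

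The 55699 entries held 55385 gene identifiers, and the 314 repeats were read once. Genes that reached 0.5 FPKM in 4 or more mice were tested with edgeR 4.0.16 (quasi-likelihood, TMM, genotype as the only term), with Benjamini-Hochberg adjustment over all 14340, and called at an adjusted p under 0.05. The script was tested on simulated data. FPKM were compared with the exact permutation test over 70 assignments, whose smallest two-sided p is 0.0286. Alternatives were RLE and no scaling, DESeq2 1.42.0, limma 3.58.1 on log2(FPKM + 1) and log2(FPKM + 0.1), other filters and leaving out each mouse. A floor of 3 counts is 0.288 to 0.349 CPM and covers counting error only, since PCR reads without molecular identifiers are not independent molecules. The members and gene lists were chosen with earlier results of these data known. Named are all members, *Arntl*, the called genes of 22 other clock genes (1 more of that list is not reported here) and 16 output genes, the 5 genes most like *Nr1d1* and *Npas2*, and genes whose exons overlap a member, while *Tef*, *Nfil3*, *Ciart*, *Alas1*, *Nampt*, *Lpin1* and *Noct* were added after their values were seen. The labels name no batch. The p-values measure the spread between mice of litters that are not named.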

Additional observations from a re-analysis of the deposited data

How the results depend on the processing

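*Nr1d1* and *Nr1d2* kept their direction and their call in all 16 alternatives that were run. *Dbp* stayed higher but lost its call with limma on log2(FPKM + 1) (1.12, adjusted p = 0.0961) and log2(FPKM + 0.1) (1.60, adjusted p = 0.0922), and in 6 of the 8 fits that left out a mouse (0.84 to 2.31 over the 8). Leaving out each mouse gave 2 to 3 members higher and 0 to 1 lower, with *Clock* lower without A472 and *Cry2* lower without A469. The sign of values near 0 turned for *Per1* (0.21 with no scaling, 0.10 with both limma fits, 0.068 with a mean FPKM of at least 5, and -0.40 to 0.20 over the fits without 1 mouse), *Cry2* (0.11 with no scaling, 0.048 and 0.047 with the limma fits, -0.42 to 0.051 without 1 mouse), *Per2* (-0.39 to 0.22 without 1 mouse) and *Npas2* (-0.043 to 0.40 without 1 mouse). The filter at a mean FPKM of 5 kept 5 of the 10 members, with 2 of them called higher.

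With no scaling the median gene moved to 0.23, and the calls over all genes from 1561 higher and 1664 lower to 3509 and 702; limma gave 3012 and 620, and 2929 and 541. With a mean FPKM of at least 5, where 6672 genes were tested, 750 were higher and 845 lower, and without A473 982 and 949 of 14340. The other clock genes counted 7 higher and 1 lower with no scaling, 4 and 0 with both limma fits, and 1 and 1 without A468, A473, A475 or A474, and the output genes 4 and 4 with no scaling, 3 and 5 with DESeq2, and 3 and 3, and 3 and 2, with the limma fits. No paired analysis was possible because the litter of each mouse is not given in the sources used here. The 4 livers per genotype at 1 time limit what can be called: changes as small as that of *Clock* lay near the threshold. *Dbp*, *Npas2* and *Per3* rested on as few as 19, 42 and 67 counts in a mouse. *Arntl2*, a called gene outside the members, rested on as few as 14.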

Other observations

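The fitted changes of *Ciart*, *Lpin1* and *Noct*, rhythmic genes outside the members, also depended on mouse A469. These genes were chosen after their values were seen. Over the 20 other clock genes tested, A469 was the highest *Usp39*-HKO mouse for only 4 (*Tef*, *Hlf*, *Ciart* and *Timeless*). It was the highest for 17.4% of all tested genes. *Ciart*, an inhibitor of the CLOCK and BMAL1 pair, was at 7.69 FPKM in A469 and at 0.564 to 1.21 FPKM in the other *Usp39*-HKO mice, against 1.07 to 2.04 FPKM in controls, with a log2 fold change of 0.70 ± 0.71 (edgeR adjusted p = 0.522) that was -0.89 without A469 (adjusted p = 0.0661). *Lpin1*, a phosphatidate phosphatase that is rhythmic and rises in fasting, was at 26.5 FPKM in A469 and at 6.12, 7.80 and 6.70 FPKM in the others, against 11.8 to 21.9 FPKM in controls. Its log2 fold change of -0.71 ± 0.44 (edgeR adjusted p = 0.276) became -1.54 without A469 (adjusted p = 0.000368). *Noct*, the rhythmic phosphatase Nocturnin, went from -0.73 ± 0.25 (edgeR adjusted p = 0.0526) to -0.99 without A469 (adjusted p = 0.00418).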
